A study of Homo sapiens with 8 samples.

Results

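Transcripts of 10 genes that carry arginine through ornithine to the polyamines were followed in DLD1 cells, a human colorectal adenocarcinoma line. The genes were listed by name, with earlier results of these data known: ARG2, ODC1, OAT, AMD1, SRM, SMS, SAT1, OAZ1, OAZ2 and AZIN1. The study took ARG2 from transcripts with raised translation efficiency, which it computed from ribosome profiling and RNA-seq. If the same RNA-seq libraries were used, the ARG2 mRNA value is not independent of that choice. All 10 were found among the 58302 genes of the deposited count table, and all 10 passed the filter on low counts that left 14133 genes for testing. The cells labelled TRMT6/TRMT61A overexpression (OE-WT) had been transduced with lentivirus, and the control cells (CTRL) carried an empty vector. TRMT6 and TRMT61A form the enzyme that writes N1-methyladenosine (m1A) on tRNA. Both groups were washed in buffer with cycloheximide, an inhibitor of translation elongation, before lysis. Each group had 2 libraries, described as duplicate cultures, and whether a group was a single clone or a mixed population was not given in the sources used here. The p-values of the gene tests below rest on the spread between these libraries, pooled in part across genes. Duplicate cultures of a single line would not show the spread between separately transduced lines. The study asked whether tRNA methylation changes the translation of ARG2. By RT-qPCR it reported no change of ARG2 mRNA between the groups, and by Western blot more ARG2 protein in OE-WT cells. The comparison here gives the mRNA side of that question from RNA-seq, for ARG2 and its pathway.

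Arginase cleaves arginine into urea and ornithine. Ornithine then goes either to glutamate and proline through ornithine aminotransferase (OAT) or to the polyamines, which are small cations that bind nucleic acids and are needed for growth, and whose synthesis is often raised in colorectal tumours. Putrescine is made from ornithine, is built up to spermidine and spermine with aminopropyl groups from decarboxylated S-adenosylmethionine, and the products are acetylated for back-conversion or export. Antizymes, which are made when polyamines are abundant, send ornithine decarboxylase to the proteasome, and antizyme inhibitor binds antizyme in its place.

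Counts on genes ranged from 10327498 to 12379671 per library, and 3 counts, the limit that a count of 0 allows, came to 0.233 to 0.302 CPM (counts relative to the library total, adjusted by the TMM method). Both overexpressed genes were higher, with 210 and 181 CPM of TRMT6 in the OE-WT libraries against 52.5 and 55.3 in the CTRL libraries, and with 137 and 130 CPM of TRMT61A against 58.8 and 56.7. Their log2 fold changes were 1.86 and 1.21 (standard error (SE) 0.08 and 0.07; adjusted p = 8.5e-13 and 1.9e-10, edgeR's quasi-likelihood test). Of 10 colon epithelial markers 9 were tested, 2 were higher and 4 were lower, while 21.1% of all genes tested were called. Their summed level was 12085 to 12428 CPM in OE-WT and 10855 to 11057 CPM in CTRL. Most of that sum was KRT8 (mean 6000 CPM in OE-WT, 5039 in CTRL) and KRT18 (3848 and 3136), the 2 higher markers. The 4 lower ones were CDH1, KRT19, KRT20 and CEACAM5, with log2 fold changes of -0.29, -0.19, -1.52 and -1.33. Summed fibroblast, immune and endothelial markers stayed at or under 3.18 CPM in every library, with 4 of 6, 1 of 6 and 2 of 4 markers at 0 in all of them. In bulk RNA, a change in the share of cells that express a gene and a change of RNA per cell cannot be told apart.

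In OE-WT cells 3 of the 10 genes rose and 1 fell at an adjusted p below 0.05. The synthases SRM and SMS rose by 26.3% and 23.0%, OAT rose by 16.3%, and SAT1, the acetyltransferase that starts polyamine breakdown, fell by 32.0%. ARG2, ODC1, AMD1, the antizyme genes OAZ1 and OAZ2 and the antizyme inhibitor gene AZIN1 did not pass the test. The called share of the 10 genes was 40.0%, against 21.1% of all genes tested. With a GC trend removed, 2 of the 10 genes and 2832 of all 14133 genes tested were called, which are near-equal shares. In one direction each, 9.44% of all genes tested were called higher and 11.6% lower. None of the 10 genes passed the thresholds of the study, an unadjusted p below 0.05 with an absolute log2 fold change above 1, in edgeR (0 of 10) or in DESeq2 (0 of 10), while 3.15% of all genes tested did so in edgeR. The unadjusted p alone was below 0.05 for 5 of the 10 genes in edgeR and for 4 in DESeq2. The share of all genes tested with such a p was not counted, so these 2 numbers have no comparison. For 7 of the 10 genes the libraries of both groups did not overlap (4 higher and 3 lower in OE-WT), and this held for 60.2% of all genes tested. The median log2 fold change was 0.04 over the 10 genes and 0.01 over all genes tested.

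**Figure D1:**
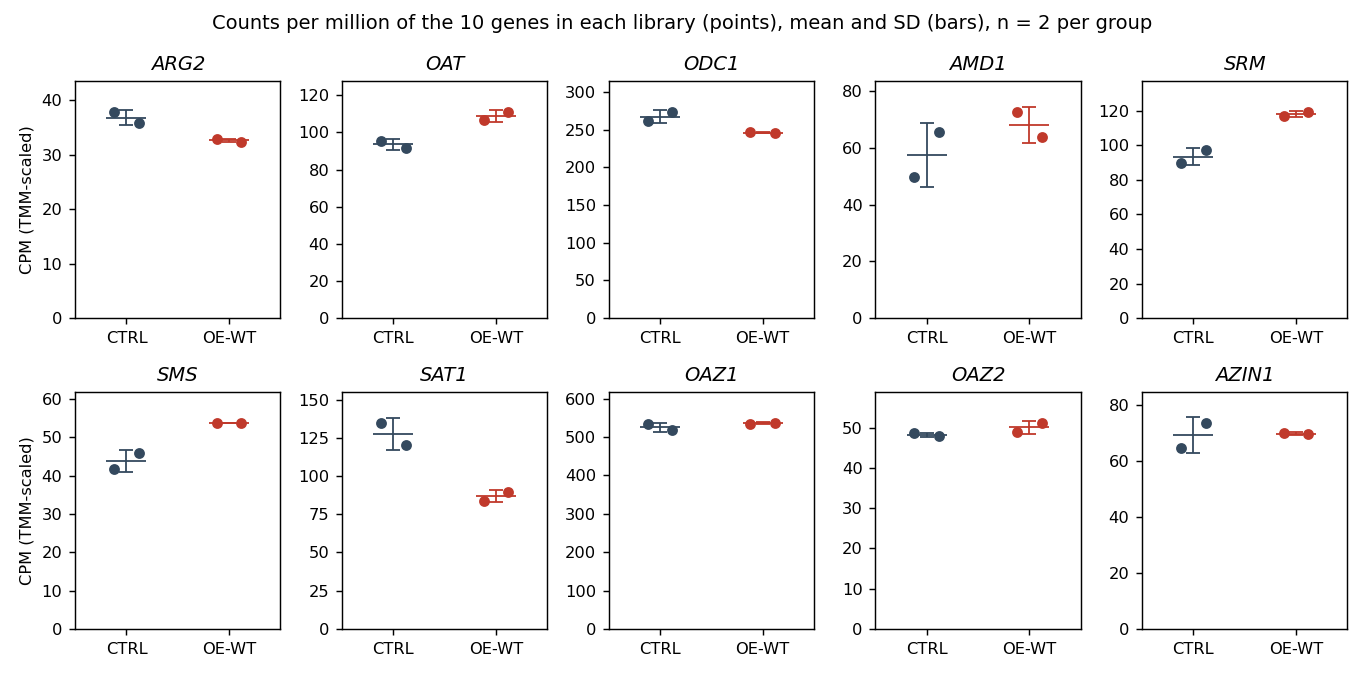
Level of each of the 10 genes in each library (CPM, scaled by TMM; a separate axis starting at 0 for each gene), with 2 CTRL and 2 OE-WT libraries as points, the group mean as a horizontal line and the SD as an error bar. SRM, SMS and OAT lie higher in both OE-WT libraries, SAT1 lies lower in both, and the AMD1 libraries overlap.

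ARG2 (ENSG00000081181, GRCh38 chromosome 14, 67619920 to 67651708, plus strand) encodes the mitochondrial arginase. Its level was 32.9 and 32.4 CPM in the OE-WT libraries and 37.9 and 35.8 CPM in the CTRL libraries, from 327 to 488 counts per library. Both OE-WT libraries lay below both CTRL libraries, by a margin that did not pass the test. The log2 fold change was -0.18 (SE 0.09, 95% confidence interval (CI) -0.36 to 0.01, adjusted p = 0.177, edgeR's quasi-likelihood test). Scaling by library size only gave -0.27 with an adjusted p of 0.0448, the only 1 of 8 alternatives to pass. That scaling also moved the median log2 fold change of all genes tested to -0.08. DESeq2 gave -0.18 (adjusted p = 0.514), and removal of a GC trend gave -0.25 (adjusted p = 0.0556). With single libraries left out, the log2 fold change of ARG2 ranged from -0.21 to -0.14. VTI1B, a gene on the opposite strand, shares 904 exon bases with ARG2, which is 39.6% of the exon bases of ARG2. VTI1B had 35.8 and 33.5 CPM in OE-WT and 45.2 and 43.5 CPM in CTRL, a log2 fold change of -0.36 (SE 0.09, adjusted p = 0.0051). The labels describe a strand-specific kit, but the study's methods describe another library route, and which of them applies is not given in the sources used here. The strand setting of the counting is not given either, and its part in the ARG2 value was not tested. ARG1, the cytosolic arginase of liver, had 2 counts in OE-WT 1 and 0 in the other 3 libraries, which is under the limit that a count of 0 allows.

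The coding sequence of ARG2 is shown because the study recoded its aspartate and glutamate codons GAC and GAG, which are in capitals below. Of its 354 codons, 8 were GAC and 5 were GAG, a share of 3.67%, and 15.8% of 19727 human coding sequences had a lower share. Aspartate was written as GAC in 34.8% of its positions and glutamate as GAG in 29.4%. Across transcripts, the study saw no simple linear relation between how frequent these codons were and the change in translation efficiency. The stretch from codon 118 to codon 147 holds 3 GAC codons and 0 GAG codons, and 6 windows of 30 codons in the gene hold as many. SRM stands at the other end among the enzymes, with GAC or GAG at 9.27% of its 302 codons, and its codons 47 to 76 hold 3 GAC and 2 GAG.
ARG2 codons 118 to 147: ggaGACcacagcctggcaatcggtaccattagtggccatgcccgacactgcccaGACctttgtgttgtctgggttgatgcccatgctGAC
SRM codons 47 to 76: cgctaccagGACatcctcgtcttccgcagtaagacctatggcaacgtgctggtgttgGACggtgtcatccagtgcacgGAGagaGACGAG
These letters describe the mRNA, and translation was not measured in the files analysed here.

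**Figure D2:**
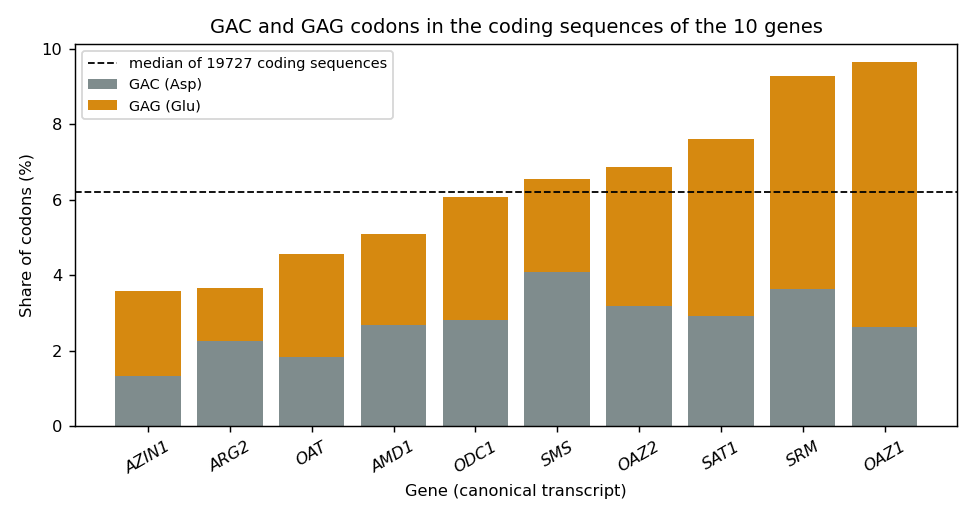
Share of GAC (grey) and GAG (orange) codons in the coding sequence of each of the 10 genes (bars from 0, percent of codons), with the median of 19727 coding sequences as a dashed line. AZIN1 and ARG2 are lowest at 3.57% and 3.67%, SRM and OAZ1 are highest at 9.27% and 9.65%, and the median is 6.19%.

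OAT (ENSG00000065154, chromosome 10, 124397303 to 124418976, minus strand) encodes the mitochondrial enzyme that moves the amino group of ornithine and so links it to glutamate and proline. It had 107 and 111 CPM in OE-WT and 95.7 and 91.6 CPM in CTRL. Both OE-WT libraries were higher, and the log2 fold change was 0.22 (SE 0.07, 95% CI 0.08 to 0.36, adjusted p = 0.0262, edgeR's quasi-likelihood test). That call depended on single libraries: it was 0.18 without OE-WT replicate 2 (adjusted p = 0.144), 0.25 without CTRL replicate 1 (adjusted p = 0.0566) and 0.19 without CTRL replicate 2 (adjusted p = 0.143). It was also lost in each of these separate fits: with DESeq2 (0.22, adjusted p = 0.160), after removal of a GC trend (0.11, adjusted p = 0.341), with library size only (0.13, adjusted p = 0.301) and with no filter (0.20, adjusted p = 0.098). Within each library the level of OAT per kb of transcript was 3.04 and 3.21 times that of ARG2 in OE-WT and 2.37 and 2.40 times in CTRL. The ratios of the groups did not overlap, and the log2 difference was 0.39 (p = 0.333 by the exact two-sided permutation test, the smallest p that 2 libraries against 2 can give).

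ODC1 (ENSG00000115758, chromosome 2, 10439968 to 10448327, minus strand) encodes ornithine decarboxylase, which makes putrescine, and it is a known target of MYC. Its level was 246 and 246 CPM in OE-WT and 261 and 273 CPM in CTRL. All of the OE-WT values lay below the CTRL values, and the difference did not pass the test, with a log2 fold change of -0.12 (SE 0.06, 95% CI -0.25 to 0.01, adjusted p = 0.198). MYC itself, a gene that drives growth and polyamine synthesis, had 110 and 117 CPM in OE-WT and 107 and 116 CPM in CTRL (log2 fold change 0.03, adjusted p = 0.838). The libraries of MYC overlapped between groups.

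SRM (ENSG00000116649, chromosome 1, 11054584 to 11060020, minus strand) encodes spermidine synthase, which adds an aminopropyl group to putrescine. It had 117 and 119 CPM in OE-WT and 89.8 and 97.0 CPM in CTRL. The groups did not overlap, and the log2 fold change was 0.34 (SE 0.07, 95% CI 0.19 to 0.48, adjusted p = 0.00133, edgeR's quasi-likelihood test). It stayed past the threshold under all 8 alternatives and whichever library was left out (adjusted p from 3.8e-07 to 0.0268). The GC content of its transcript, 63.7%, was the highest of the 10 genes, and with a GC trend removed the log2 fold change was 0.52.
The promoters of ODC1 and SRM are shown because both hold the E-box CACGTG, the motif bound by MYC with its partner MAX, which is in capitals and reads the same on both strands. Promoters here are 250 bases before to 50 bases after a start site in RefSeq on GRCh38.p14, and 9 of the 10 genes were matched to 12 such entries. The E-box was in 7.26% of 35116 promoters, and among the 10 genes it was found in ODC1, with 2 matches, and in SRM, with 1. The SRM match begins 199 bases before the start site. SRM rose in OE-WT cells, and ODC1 did not pass the test.
SRM promoter, chr1:11059969-11060268, minus strand: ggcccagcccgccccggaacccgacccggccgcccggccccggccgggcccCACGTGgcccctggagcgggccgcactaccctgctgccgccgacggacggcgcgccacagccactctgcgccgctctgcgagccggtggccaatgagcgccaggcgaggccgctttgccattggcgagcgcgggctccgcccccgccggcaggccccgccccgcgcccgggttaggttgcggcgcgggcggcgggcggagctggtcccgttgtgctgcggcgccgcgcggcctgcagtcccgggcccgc
ODC1 promoter, chr2:10447963-10448262, minus strand: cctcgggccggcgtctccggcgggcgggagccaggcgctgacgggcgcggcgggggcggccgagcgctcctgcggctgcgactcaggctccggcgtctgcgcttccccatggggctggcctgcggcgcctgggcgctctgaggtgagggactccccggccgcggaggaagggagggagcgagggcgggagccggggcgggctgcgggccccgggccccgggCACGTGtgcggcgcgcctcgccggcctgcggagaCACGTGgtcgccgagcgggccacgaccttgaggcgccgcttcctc
Of the other motifs searched on both strands, CACGCG was in 11.4% of promoters and in those of OAT and ODC1, TGACGTCA in 1.85% and in that of ARG2, and TATAAA in 11.5% and in that of OAZ1. A match is a description of the letters, and binding was not measured in these files.

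SMS (ENSG00000102172, chromosome X, 21940709 to 21994837, plus strand) encodes spermine synthase, which turns spermidine into spermine. It had 53.8 and 53.8 CPM in OE-WT and 41.7 and 45.8 CPM in CTRL. Both OE-WT libraries were higher than both CTRL libraries, with a log2 fold change of 0.30 (SE 0.08, 95% CI 0.13 to 0.47, adjusted p = 0.0113, edgeR's quasi-likelihood test). Without CTRL replicate 1 it was 0.23 (adjusted p = 0.141), and with DESeq2 it was 0.30 (adjusted p = 0.111). The call was also lost with library size only (0.21, adjusted p = 0.0946) and with a GC trend removed (0.21, adjusted p = 0.0582). SRM and SMS kept a similar ratio in all 4 libraries: the level of SRM per kb was 2.93 and 3.0 times that of SMS in OE-WT and 2.91 and 2.86 times in CTRL, a log2 difference of 0.04 (p = 0.333, exact two-sided permutation test), with groups that did not overlap.

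AMD1 (ENSG00000123505, chromosome 6, 110874770 to 110898879, plus strand) encodes the decarboxylase of S-adenosylmethionine, which supplies the aminopropyl groups for both synthases. Its level was 72.7 and 63.8 CPM in OE-WT and 49.7 and 65.5 CPM in CTRL. The groups overlapped, since CTRL 2 lay above OE-WT 2, and CTRL 1 was the lowest library. The log2 fold change was 0.25 (SE 0.10, 95% CI 0.04 to 0.46, adjusted p = 0.0871). Single libraries decided it: it was 0.06 without CTRL replicate 1 (adjusted p = 0.772), 0.33 without OE-WT replicate 2 (adjusted p = 0.0054) and 0.46 without CTRL replicate 2 (adjusted p = 0.000106).
The AMD1 transcript is known for a short upstream reading frame through which polyamines hold back its translation, and that frame is shown with its start and stop codons in capitals. It lies at bases 12 to 32 of a leader of 321 bases, has 6 codons before its stop and holds the only ATG of the leader.
AMD1 upstream frame: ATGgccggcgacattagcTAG
Its effect on translation cannot be read from RNA counts.

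SAT1 (ENSG00000130066, chromosome X, 23783173 to 23786210, plus strand) encodes spermidine/spermine N1-acetyltransferase, whose products are oxidized back to smaller polyamines or exported. It had 83.9 and 89.5 CPM in OE-WT and 135 and 120 CPM in CTRL. Both OE-WT libraries were below both CTRL libraries, and SAT1 showed the greatest change of the 10 genes. The log2 fold change was -0.56 (SE 0.07, 95% CI -0.71 to -0.40, adjusted p = 1.4e-05, edgeR's quasi-likelihood test), a level 0.680 times that of CTRL. Under all 8 alternatives it ranged from -0.65 to -0.55 and with single libraries left out from -0.64 to -0.47, past the threshold each time.
Because SAT1 works on the products of SRM and SMS, their levels per kb were set against it within each library. SRM stood at 1.16 and 1.11 times SAT1 in OE-WT and at 0.554 and 0.673 times in CTRL, by the length of the canonical transcript. By the merged length of all exons, the CTRL libraries of SRM (47.4 and 51.2 CPM per kb) and SAT1 (54.4 and 48.3) overlapped, while SRM (61.6 and 62.9) lay above SAT1 (33.8 and 36.0) in OE-WT. The length chosen changes these ratios but not their log2 differences between groups. For SMS the ratios were 0.395 and 0.370 in OE-WT and 0.190 and 0.235 in CTRL. The log2 differences were 0.89 for SRM and 0.86 for SMS (p = 0.333 for each, exact two-sided permutation test, the smallest p it can give here). These differences restate the changes of SRM, SMS and SAT1 already given and are not further results.

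OAZ1 (ENSG00000104904, chromosome 19, 2269509 to 2273490, plus strand) and OAZ2 (ENSG00000180304, chromosome 15, 64687573 to 64703281, minus strand) encode antizymes. Both are made only when the ribosome slips forward by a base at the stop codon of the first reading frame, a step that polyamines favour. The site is shown for both genes, with the last codon of the first frame and its TGA stop in capitals. It lies at chr19:2271429-2271457 on the plus strand for OAZ1 and at chr15:64691501-64691529 on the minus strand for OAZ2.
OAZ1 frameshift site: ctcggtggtgcTCCTGAtgcccctcaccc
OAZ2 frameshift site: ctctgtggtgcTCCTGAtgcccctcaccc
OAZ1 had 534 and 538 CPM in OE-WT and 534 and 517 CPM in CTRL, and its libraries overlapped. The log2 fold change was 0.03 (95% CI -0.10 to 0.16, adjusted p = 0.805), and it was -0.06 with library size only. OAZ2 had 48.9 and 51.2 CPM in OE-WT and 48.6 and 47.8 CPM in CTRL. Although its OE-WT libraries were both higher, the log2 fold change was 0.05 (95% CI -0.11 to 0.22, adjusted p = 0.675), and -0.04 with library size only. OAZ1 stood at 18.4 and 17.7 times OAZ2 per kb in OE-WT and at 18.5 and 18.2 times in CTRL, and these ratios overlapped.

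AZIN1 (ENSG00000155096) encodes antizyme inhibitor, which resembles ornithine decarboxylase without its activity. It had 70.0 and 69.3 CPM in OE-WT and 64.5 and 73.6 CPM in CTRL. Both OE-WT libraries lay between the CTRL libraries. The log2 fold change was 0.01 (95% CI -0.15 to 0.18, adjusted p = 0.921), and its sign changed with the scaling: it was -0.08 with library size only. The level of ODC1 was 0.214 and 0.212 times that of OAZ1 per kb in OE-WT and 0.226 and 0.245 times in CTRL, a log2 difference of -0.15 (p = 0.333, exact two-sided permutation test). By the merged length of all exons, mean ODC1 was 74.3 CPM per kb in OE-WT and 80.7 in CTRL, against 156 and 153 for OAZ1. Every ratio per kb between genes given here depends on the length chosen, but its log2 difference between groups does not.

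The level per length, in CPM per kb of the canonical transcript, ordered the genes in CTRL as follows. OAZ1 was highest at 458 ± 10 (SD, n = 2 libraries, here and below), followed by SAT1 at 121 ± 10.1, ODC1 at 108 ± 3.60 and SRM at 74.1 ± 4.01. OAT followed at 45.9 ± 1.40. SMS (25.7 ± 1.71) and OAZ2 (24.9 ± 0.280) overlapped, as did ARG2 (19.3 ± 0.759) with AMD1 (16.8 ± 3.27) and AMD1 with AZIN1 (16.4 ± 1.53). In OE-WT cells SAT1, at 82.6 ± 3.77, lay below ODC1 (99.3 ± 0.151) and SRM (93.6 ± 1.43), and ARG2, at 17.1 ± 0.189, lay below AMD1 (19.9 ± 1.85). No neighbours in the OE-WT order overlapped. The order depends on the length chosen. By the merged length of all exons, an alternative added after seeing the data, SAT1 was already below ODC1 in CTRL (51.3 against 80.7 CPM per kb) and moved from above SRM in the CTRL mean (49.3) to below it in OE-WT (34.9 against 62.3). By that length ARG2 was above AMD1 in both groups, at 14.3 against 6.69 in OE-WT and 16.1 against 5.65 in CTRL. OAZ2, at 6.28 in CTRL and 6.52 in OE-WT, then lay below AZIN1 (11.3 and 11.4) and no longer overlapped SMS in CTRL. OAZ1 was highest in both groups by either length.

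**Figure D3:**
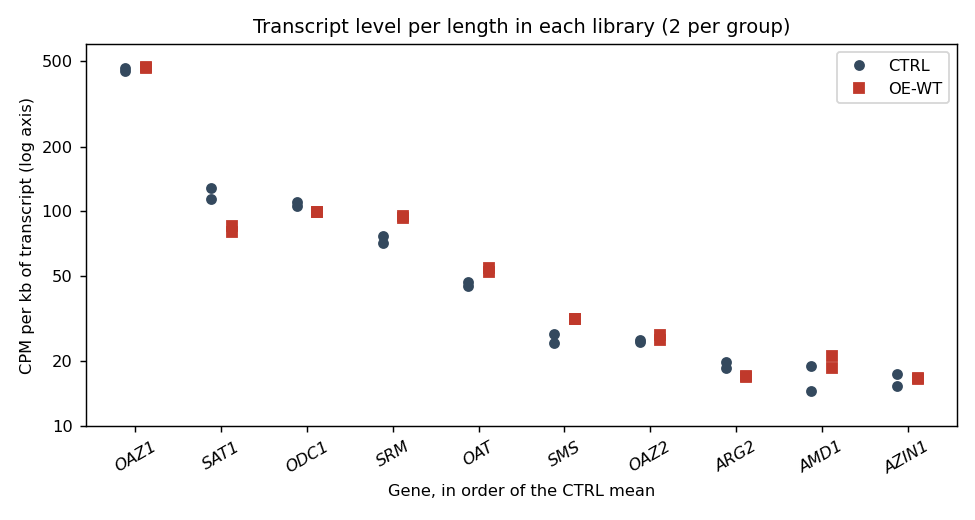
Level per length of the 10 genes in each library (CPM per kb of transcript, log axis), in order of the CTRL mean, with CTRL libraries as circles and OE-WT libraries as squares (2 each). SAT1 is at 121 in CTRL and at 82.6 in OE-WT, and OAZ1 is highest in both groups. The order of SAT1, ODC1, OAZ2, ARG2, AMD1 and AZIN1 differs by the merged length of all exons.

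The rest of the pathway was read from a list of 47 further genes in 8 groups. Of these, 36 were tested, 3 rose, 6 fell and 27 did not pass, a called share of 25.0% against 21.1% of all genes tested, with a median log2 fold change of -0.05. The libraries of both groups did not overlap for 28 of the 36 genes (12 higher and 16 lower in OE-WT), against 60.2% of all genes tested. The 11 genes not tested had too few counts, and 0 of the 47 were at 0 in all libraries. GAMT was the 1 gene past the thresholds of the study (log2 fold change -1.02). It fell short of them without OE-WT replicate 1 (-0.77), without CTRL replicate 1 (-0.95) and with a GC trend removed (-0.81).

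Among the genes of arginine supply and the urea cycle 9 of 15 were tested, and 3 of these fell while 0 rose. Of all genes tested, 11.6% were called lower and 9.44% higher. Here and in the groups below the tested genes were few, and no group was tested as a set. ASS1, argininosuccinate synthase, which rebuilds arginine from citrulline, had 103 and 106 CPM in OE-WT and 169 and 158 CPM in CTRL (log2 fold change -0.65, SE 0.07, adjusted p = 6.9e-07, edgeR's quasi-likelihood test). GAMT, which completes creatine from an arginine-derived precursor, was counted 24 and 36 times in OE-WT cells, against 82 and 71 times in CTRL cells (log2 fold change -1.02, SE 0.24, adjusted p = 0.0034). SLC25A29, a mitochondrial carrier of basic amino acids, had 9.65 and 8.44 CPM in OE-WT and 13.9 and 15.2 CPM in CTRL (-0.69, SE 0.15, adjusted p = 0.0025). For each of these genes both OE-WT libraries were the lower ones.

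Beside OAT, 5 genes between ornithine, glutamate and proline were tested, and 1 fell. This was ALDH18A1, which makes the precursor of proline and ornithine from glutamate, with 239 and 262 CPM in OE-WT and 299 and 295 CPM in CTRL (-0.25, SE 0.07, adjusted p = 0.0106). It was -0.17 without OE-WT replicate 1 (adjusted p = 0.165). Thus OAT was higher and ALDH18A1 lower in the same libraries.

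Upstream and downstream of the synthases, 1 of 6 tested genes of S-adenosylmethionine supply and methylthioadenosine salvage rose, and 1 of 4 hypusine genes rose. MAT2A, which makes S-adenosylmethionine, the substrate of AMD1, had 154 and 155 CPM in OE-WT and 110 and 124 CPM in CTRL (0.40, SE 0.07, adjusted p = 0.00030). EIF5A, the translation factor that carries hypusine, an amino acid made from spermidine, had 958 and 955 CPM in OE-WT and 805 and 805 CPM in CTRL (0.25, SE 0.06, adjusted p = 0.0079). The EIF5A call was lost with library size only (0.16, adjusted p = 0.214). Neither of the 2 tested genes of polyamine oxidation and acetylation beside SAT1, nor the 2 other antizyme and antizyme inhibitor genes, passed the test in edgeR (0 of 2 each).

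Of 7 tested transporters of arginine and polyamines, 1 rose and 2 fell. SLC7A2, a carrier of cationic amino acids, had 8.04 and 9.51 CPM in OE-WT and 5.43 and 6.00 CPM in CTRL (0.62, SE 0.18, adjusted p = 0.0181). That call was lost without OE-WT replicate 2 (0.48, adjusted p = 0.137), without CTRL replicate 1 (0.55, adjusted p = 0.111) and with DESeq2 (0.62, adjusted p = 0.149). SLC3A2, the heavy chain shared by several amino acid transporters, had 1342 and 1377 CPM in OE-WT and 1811 and 1906 CPM in CTRL (-0.45, SE 0.07, adjusted p = 6.1e-05). ATP13A2, which carries polyamines out of lysosomes, had 138 and 155 CPM in OE-WT and 183 and 191 CPM in CTRL (-0.35, SE 0.07, adjusted p = 0.00099), and with a GC trend removed it was -0.16 (adjusted p = 0.109). SLC3A2 and ATP13A2 were thus lower and SLC7A2 higher in both OE-WT libraries.

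**Figure D4:**
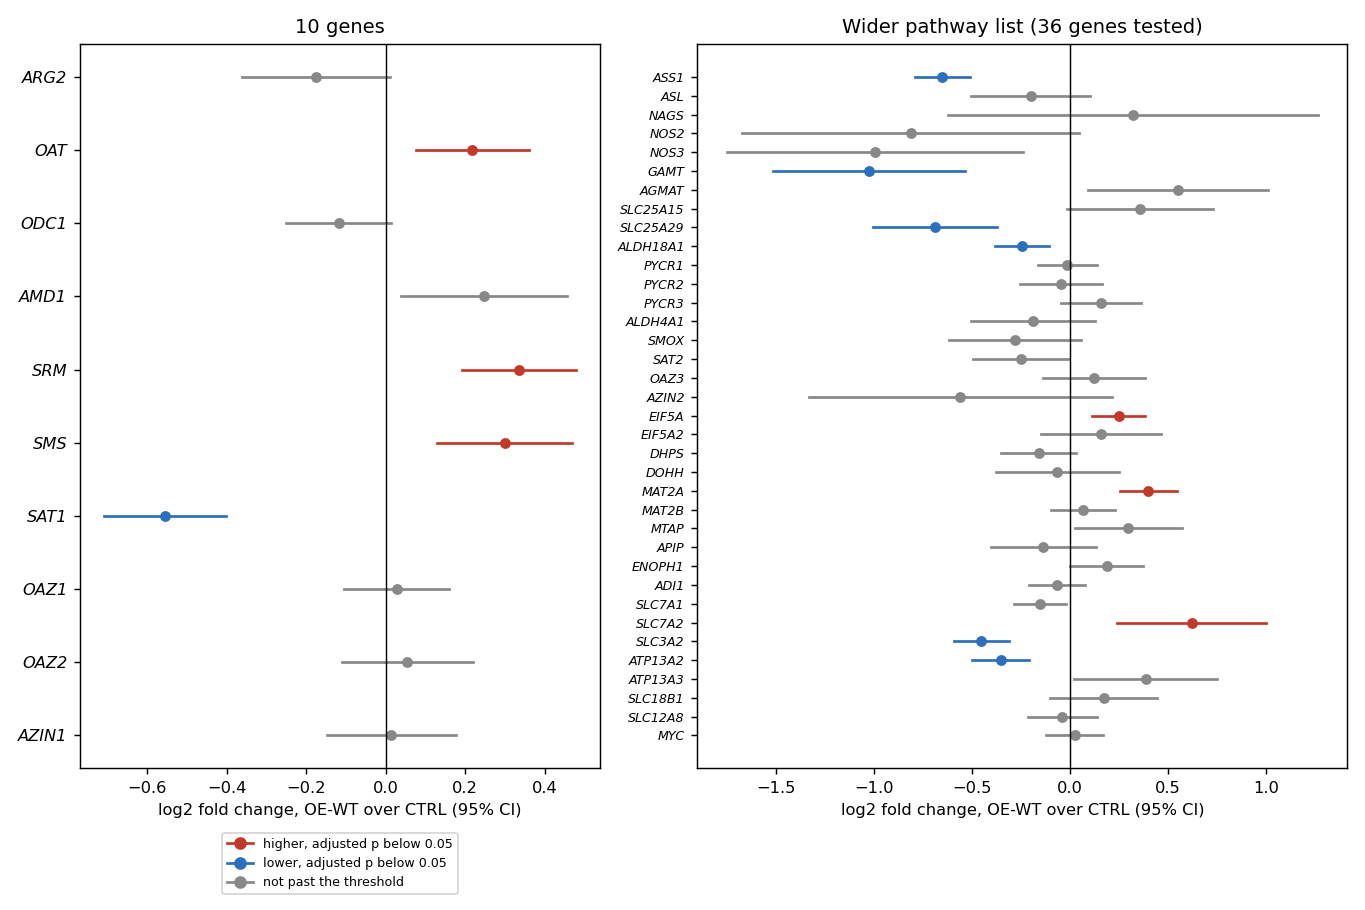
Log2 fold change of OE-WT over CTRL with its 95% confidence interval for the 10 genes (left) and for the 36 tested genes of the wider list (right), colored where the adjusted p was below 0.05 (red higher, blue lower). SRM (0.34), SMS (0.30) and OAT (0.22) lie to the right of 0 and SAT1 (-0.56) to the left, with ASS1 (-0.65) and GAMT (-1.02) in the same direction.

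**Figure D5:**
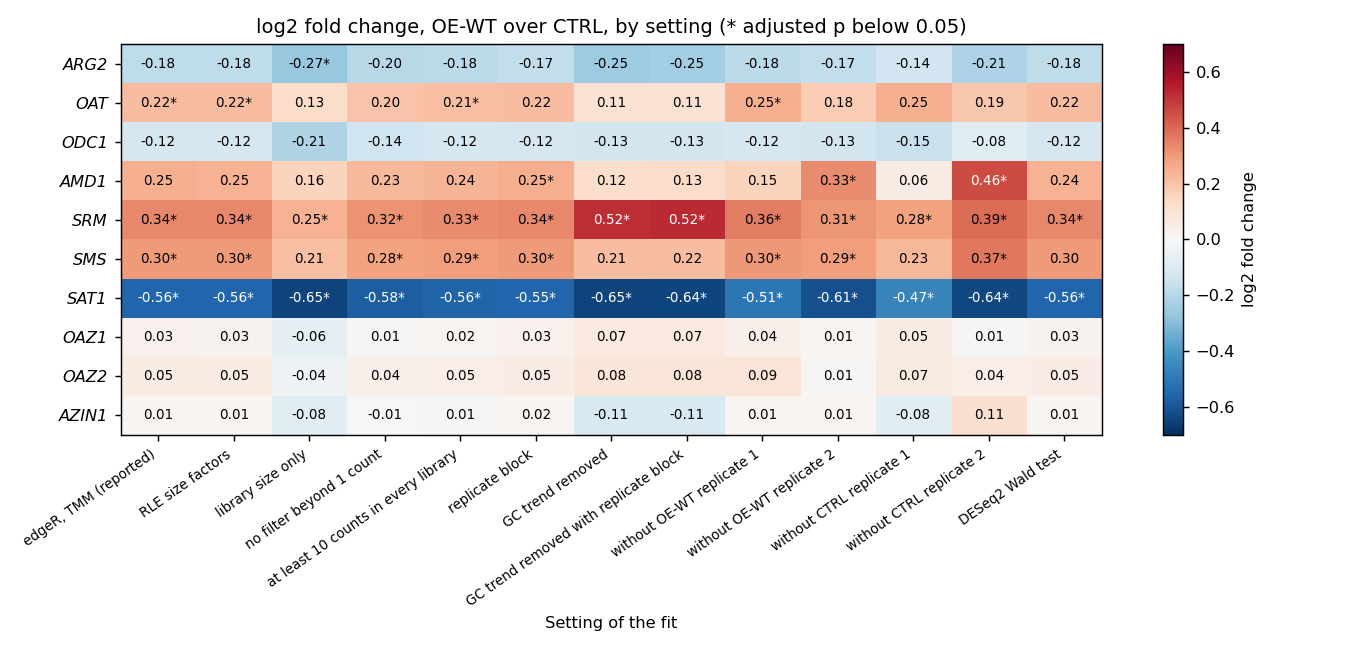
Log2 fold change of OE-WT over CTRL for each of the 10 genes (one line of cells per gene) in the reported fit, in 8 alternatives and with each library left out, where a star marks an adjusted p below 0.05. SRM and SAT1 carry a star in every column, whereas OAT, SMS, AMD1 and ARG2 change theirs with the column.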

How the data were processed

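RNA-seq of 4 libraries of DLD1 cells (2 OE-WT, 2 CTRL) was analysed. The authors deposited raw counts per gene on GRCh38 with 1 column per library, although the labels list 2 lanes for each. The labels describe poly(A) selection, a strand-specific kit, HISAT2 2.2.1, featureCounts 2.0.0 and DESeq2 1.34.0, in duplicate. The study's methods describe removal of ribosomal RNA, HTSeq, edgeR and more replicates, and which route made the deposited counts is not given in the sources used here. The annotation release and strand setting are not given either.

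Identifiers were matched to GENCODE 44 (57532 of 58302). Counts were tested with edgeR 4.0.16 in R 4.3.3 (TMM scaling, quasi-likelihood test, no replicate block) after its default filter, with 10 as the minimum count, and p-values were adjusted by the Benjamini-Hochberg method over 14133 genes. Named were all 10 genes, TRMT6, TRMT61A, ARG1 and each gene of the wider list with an adjusted p below 0.05. MYC and VTI1B were named after their values were seen. The genes and lists were chosen with earlier results of these data known. The step was tested on simulated data, where 93.3% of 200 changed genes among 14133 were recovered and 5.24% of calls were unchanged genes. The simulated log2 fold changes were 1 to 2 in size, greater than any among the 10 genes. Recovery of smaller changes was not tested. The 2 libraries of a group differed beyond sampling noise (chi-square per degree of freedom 4.95 in OE-WT and 4.47 in CTRL). The limits that a count of 0 allows cover counting error only, and the confidence intervals of fold changes include the spread between libraries. The reported fit was set against scaling by RLE or by library size only. The other filters were at least 1 count in all, called no filter here, and 10 counts or more per library. Further fits used a replicate block, a GC trend removed (lowess, span 0.3) with and without that block, and DESeq2 1.42.0. Each library was also left out in turn. Figures were drawn with matplotlib 3.10.9 in Python 3.11.15. Ribosome profiling and tRNA sequencing were not analysed here.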

Additional observations from a re-analysis of the deposited data

How the results depend on the processing

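Of the 10 genes, 4 were called in the reported fit. The number was 2 with a GC trend removed and 2 with DESeq2. It was also 2 with a GC trend removed with replicate block, where 18.3% of all genes tested were called. Which library was left out also changed the number. Library size only called 3 (1 higher and 2 lower, 2 of them shared with the reported fit), and no filter called 3. Of all genes tested, 22.5% were called with library size only, 8.7% of 26095 with no filter and 9.71% with DESeq2. With a GC trend removed 2832 of 14133 genes tested were called, a share equal to that of the 10 genes to 3 digits. With a library left out, the lone library of that group was assumed to vary like the other group. In the wider list 9 genes were called, and 8 to 11 in the 8 alternatives. In those fits 8.7% to 22.5% of all genes tested were called. The labels give the same replicate numbers to both groups without stating a pairing, and the correlation of their differences was -0.07 across 14133 genes, so the numbers were not taken to pair the libraries. With the replicate block 4 of the 10 genes and 10 of the wider list were called, 3 of the 4 being shared with the reported fit, since AMD1 came in (0.25, adjusted p = 0.0473) and OAT went out (0.22, adjusted p = 0.0735). Over all genes the calls numbered 2976 in the reported fit, 2658 with the block and 1373 with DESeq2. Library size only gave 735 higher and 2448 lower calls, against 1334 and 1642, and shifted the median of all genes to -0.08. Signs turned for OAZ1 (-0.064) and OAZ2 (-0.037) with library size only. AZIN1, at 0.01 in the reported fit, turned to -0.077 with library size only, -0.0053 with no filter, -0.11 with a GC trend removed, -0.11 with that and the block, and -0.079 without CTRL replicate 1, and it was 0.11 without CTRL replicate 2. No call of SRM or SAT1 was lost in any of these fits; the causes of the other changes were not tested. For a gene such as GAMT, with 24 to 82 counts, depth limits the precision.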

Other observations

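Near-identical copies held few counts: 10 pseudogenes of ODC1, AMD1, SRM, SMS and OAZ1 had at most 0.0211% of the counts of their parent gene. JSRP1, on the strand opposite to OAZ1, shares 236 exon bases with it, 6.87% of the exon bases of OAZ1. It had 187 and 178 CPM in OE-WT and 193 and 174 CPM in CTRL (log2 fold change -0.01, adjusted p = 0.936, edgeR's quasi-likelihood test).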
